A study of Mus musculus with 10 samples.

Results

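The interferon-stimulated genes described here are Irf1, Irf7, Isg15, Bst2, Ifitm2, Ifitm3, Ifit1, Ifit3 and Gbp2, a list of known targets of type I and type II interferon, taken from the table by gene symbol. All 9 symbols were found among the 24059 of the count table. RNA came from whole lungs of female C57Bl/6 mice that were 14 weeks old and had eaten a high-fat diet for 8 weeks. The FO group received fish oil rich in n-3 polyunsaturated fatty acids (Harlan Teklad TD. 07500) and the CO group received coconut oil rich in saturated fat (TD. 08081). Both diets held cholesterol, and the study's diet composition lists less of it and more ceramides in the FO diet. There was no group on ordinary chow. Each group held 5 mice, each mouse gave 1 library, lungs were flushed with PBS, and airway reactivity had been tested before the RNA was taken. The comparison asks how the fish oil diet and the coconut oil diet differ in the lung RNA of otherwise similar mice.

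Interferons are secreted proteins that warn cells of infection. Type I interferons (alpha and beta) and type II interferon (gamma) bind separate receptors, and the kinases on those receptors activate STAT transcription factors that switch on a large set of target genes. In the lung, where inhaled viruses land on the epithelium, the products of these targets block viral entry, translation and release, and many are kept at a low level in tissue that is not infected.

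At the depth of these libraries the interferon program was scarcely separable between the diets. Among genes with enough counts for edgeR's default filter, 3 members were tested (Irf1, Ifitm3 and Gbp2), and 0 of the 3 had an unadjusted p under 0.05, the threshold that the study's methods set, with edgeR or with DESeq2, while 2.91% of the 2438 genes tested passed it in edgeR and 2.54% in DESeq2. The 6 other members were read from an edgeR fit of the 14161 genes with a count in any mouse. In that fit 1 of 9 members passed the threshold, Irf7, where 4.15% of all genes passed, and 2.58% passed with the higher value in FO. DESeq2 also gave 1 of 9 there, where it called 0.975% of all genes. Irf7 had 11 ± 4.13 TMM-normalized counts per 1000000 (CPM) in FO and 2.56 ± 2.67 in CO (mean ± SD, as for all group values below). It was the single member whose groups did not overlap in CPM, which 0.424% of the 14161 genes also showed. Its adjusted p was 0.905 (0.79 to 1.0 over the alternatives), and 44 counts over all mice carried the difference. The median log2 fold change (FO minus CO) of the 9 members was 0.14, beside 0.05 for all genes in the same fit, and 6 members had a positive value and 3 a negative one. That median was 0.56 without CO mouse 4 and -0.01 without CO mouse 5. With scaling by library size alone, which moved the median of all genes to -0.43, the members had a median of -0.48 and 4 of the 9 lay above all genes' median, against 6 with TMM, so the members had no common direction.

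The libraries were shallow and uneven. Their median total was 830181 counts in FO and 358832 in CO (two-sided exact permutation test on the means, p = 0.127). Totals ran from 229766 to 1124963 counts, and Rn45s, the precursor of ribosomal RNA, took between 21.8% of the counts of CO mouse 4 (exact Clopper-Pearson 95% bounds, 21.6% and 21.9%) and 87.0% of those of FO mouse 3 (86.8% to 87.1%). That left 45177 to 473254 counts for all other genes, with a median of 235781 in FO and 136211 in CO. The 9 members together had between 38 counts in CO mouse 1 and 369 in CO mouse 4. With Rn45s set aside, their share of the remaining counts was lowest in FO mouse 2, at 0.0746% (0.067% to 0.0828%), and highest in FO mouse 3, at 0.14% (0.108% to 0.178%). The share was 0.1003 ± 0.0255% in FO and 0.0926 ± 0.0235% in CO (two-sided exact permutation test, p = 0.643), so the members' joint share did not differ beyond the spread between mice. A floor of 3 counts stood for 2.33 CPM in FO mouse 2 and 15.6 CPM in CO mouse 1. Intervals and floors cover counting error only. Since the RNA is from whole lung, fewer cells of a type and less RNA per cell cannot be told apart in any value below.

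Lung identity was clear in the markers. The alveolar type 2 list had a count for all 8 of its genes, with Sftpc the most abundant, and all 4 club cell genes were counted, led by Scgb1a1. Of the 7 alveolar type 1 genes, Hopx was the most abundant and Aqp5 was listed at 0 in every mouse. A gene listed at 0 in all mice is therefore not read as absent here, since lung is known to express Aqp5 strongly and the annotation used for counting is not named. All 13 endothelial genes were counted, with Epas1 the most abundant.

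Compared per kilobase of transcript, the members covered a wide range of levels. Ifitm3, which encodes a membrane protein that traps entering viruses in endosomes, was the most abundant at 140 ± 30.9 CPM per kilobase over the 10 mice, and its range of 89.5 to 194 did not meet that of the next gene. Irf1 (29.5 ± 12.7) and Isg15 (29.4 ± 15.3 CPM per kilobase) followed at one level, with each of them ahead in 5 of the 10 mice. Ifitm2 had 22 ± 9.47, Bst2 12 ± 5.8, Gbp2 9.64 ± 6.25, Ifit3 9.45 ± 5.53 and Ifit1 7.84 ± 4.01 CPM per kilobase. Of the 50-base stretches of Ifitm2 and Ifit3, 48.5% and 51.2% also occur in other annotated genes. Their places depend on how shared reads were counted, which is not known. Irf7 was the least abundant at 3.53 ± 2.87. From Irf1 downward the range of every gene overlapped that of the next, although Ifitm2 was above Bst2 in 9 of 10 mice and Ifit1 was above Irf7 in 9 of 10. The order of the group means differed in part between the diets, by less than the SD of the genes involved. In FO, Isg15 (37.5 ± 17.7) was above Irf1 (31.9 ± 9.93), and Ifit1 (8.71 ± 3.33) was above Ifit3 (8.54 ± 5.94). In CO, Irf1 (27.2 ± 15.8) and Ifitm2 (23.3 ± 10.7) were above Isg15 (21.3 ± 6.93), and Ifit3 (10.4 ± 5.61) was above Gbp2 (8.95 ± 6.4).

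**Figure D1:**
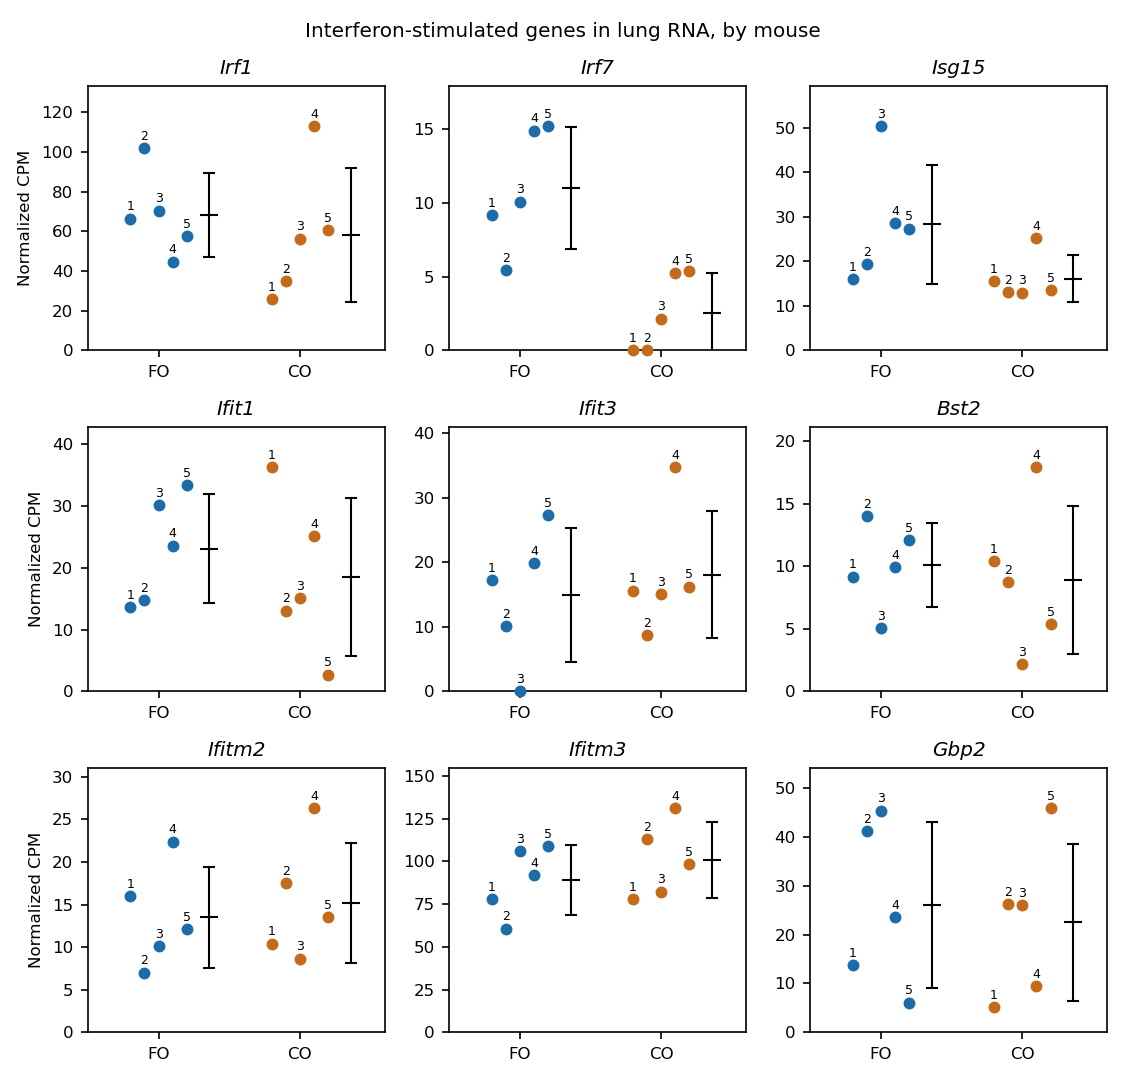
Normalized CPM of the 9 members in each mouse, with the mouse number beside each point and the mean ± SD of each group of 5 at its right. Irf7 is the panel in which every FO mouse lies above every CO mouse, by 5.44 against 5.39 CPM at the closest, and the groups overlap in the other 8 panels.

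The transcription factors come first in the pathway. Irf7 is the factor that amplifies type I interferon production once a first wave of interferon has raised it. Taken in order from mouse 1 to mouse 5, the FO group had 8, 7, 2, 12 and 5 counts of it and the CO group had 0, 0, 1, 5 and 4. After normalization these were 9.16, 5.44, 10.1, 14.9 and 15.2 CPM in FO, and 0, 0, 2.16, 5.26 and 5.39 CPM in CO. The 5 FO mice all lay above the 5 CO mice, but FO mouse 2 and CO mouse 5 were nearly level, and a single count in either would change their order. FO mice 4 and 5 were the highest, and CO mice 1 and 2 had no count. The mean level of the FO group lay under the floor of each of these CO mice, at 15.6 and 13.1 CPM. That holds for each mouse alone, and 0 counts in both together were not tested against that level.

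The log2 fold change of Irf7 was 1.48 ± 0.67 (SE, edgeR fit of genes with any count, 95% interval 0.17 to 2.79), a 2.79-fold higher level in FO with an unadjusted p of 0.0269. The two-sided exact permutation test on log2 CPM gave p = 0.00794, the smallest that 5 against 5 mice can give. The pooled counts, 34 in FO and 10 in CO, gave a ratio of pooled CPM of 2.51 (exact 95% counting interval 1.21 to 5.7). Without FO mouse 4 the log2 fold change was 1.33 with an unadjusted p of 0.0733, and with library size alone it was 0.92 with an unadjusted p of 0.277, or 1.35 above the median of all genes against 1.43 with TMM. The highest value under the alternatives was 1.97, without FO mouse 2 and CO mouse 5 together (edgeR, unadjusted p = 0.00896).

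As CPM of the counts outside Rn45s, a scale that uses no normalization factor, Irf7 read 31.9, 14.8, 43.0, 50.9 and 54.7 in FO mice 1 to 5 and 0, 0, 7.34, 17.8 and 15.6 in CO mice 1 to 5. On this scale the groups overlapped, with FO mouse 2 below CO mice 4 and 5 and the other 4 FO mice above all CO mice (two-sided exact permutation test on log2 values, p = 0.0238). Irf7 lies on the minus strand of chromosome 7 (GRCm38), and 45 of its exonic bases overlap exons of Phrf1. The counts of Phrf1 were 7, 24, 0, 3 and 3 in FO and 4, 4, 12, 5 and 13 in CO, with a log2 fold change of -0.77 ± 0.51 (SE, unadjusted p = 0.127). Phrf1 thus had its higher mean in the CO group, the reverse of Irf7, and the part of shared reads in either gene was not tested.

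Most neutrophil markers lay in the same direction as Irf7, with 9 of 10 log2 fold changes positive among genes with any count. The exception was Ltf, at -0.47 with 14 counts in FO and 16 in CO. Of the 10 genes, 1 passed the default filter, S100a9. Apart from S100a9 and S100a8, each gene of the list had 3 counts or fewer in at least 7 of the 10 mice. The directions of those genes therefore rest on few counts. Summed over the 10 neutrophil genes of the table, the level was 316, 58.3, 141, 90.8 and 167 CPM in FO mice 1 to 5 and 25.9, 48.0, 45.4, 49.4 and 47.1 CPM in CO mice 1 to 5. No CO mouse reached the lowest FO mouse, and FO mouse 1 was the highest by far (155 ± 99.7 against 43.2 ± 9.75 CPM, two-sided exact permutation test, p = 0.00794). In the edgeR fit of genes with any count, 6 of the 10 had the higher value in FO with an unadjusted p under 0.05, where 2.58% of all genes did. Among these 6, Retnlg, Mmp8, Ngp and Camp had 26, 13, 5 and 4 counts in FO and 5, 1, 0 and 0 in CO. DESeq2 gave 4 of the 10, beside 71 of all 14161 genes. Without FO mouse 1 edgeR gave 2, beside 329 of 13981 genes, and with library size alone 2, beside 85 of 14161. None of the 10 was at 0 in all mice, and the most abundant was S100a9, a calcium-binding protein of neutrophil granules and cytosol, with 70.2 ± 52 CPM in FO and 13.1 ± 5.86 in CO. Its adjusted p was 1.99e-05 in that edgeR fit, the smallest of all genes, against 0.377 with the default filter. S100a8 had 52.3 ± 38.2 CPM in FO and 17.3 ± 5.92 in CO. S100a9 and S100a8 made up most of the sum in both groups. The marker list was chosen with earlier results of these data known. S100a8, S100a9, Retnlg and Mmp8 are also among the genes that the study named from its own diet comparison. The shares called and the permutation p of the sum therefore describe this list and are no independent test. The part of neutrophils in the Irf7 difference was not tested.

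Plasmacytoid dendritic cells, the blood-borne producers of type I interferon that hold much Irf7, had overlapping levels in the FO and CO groups. Their 9 markers summed to 288 ± 65.2 CPM in FO and 314 ± 104 in CO (two-sided exact permutation test, p = 0.833). Most of that sum was Tcf4, which other lung cells express as well. The defining marker Siglech had 4 counts in FO and 3 in CO, and Pacsin1 and Ly6d were listed at 0.

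Irf1, an early target of gamma interferon and a factor that drives antigen-processing genes, had enough counts for the default filter. It measured 66.4, 102, 70.4, 44.8 and 57.7 CPM in FO mice 1 to 5 and 25.9, 34.9, 56.3, 113 and 60.6 CPM in CO mice 1 to 5. The groups overlapped throughout, the highest value was in CO mouse 4, and the lowest were in CO mice 1 and 2. The log2 fold change was 0.13 ± 0.31 (SE, 95% interval -0.53 to 0.79, adjusted p = 0.998). A rise beyond 1.73-fold in FO lies outside that interval.

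Isg15 is a ubiquitin-like protein that is attached to other proteins and is among the most strongly induced interferon targets. Its counts were 14, 25, 10, 23 and 9 in FO mice 1 to 5 and 3, 3, 6, 24 and 10 in CO mice 1 to 5, equal to 16.0, 19.4, 50.3, 28.6 and 27.3 CPM in FO and 15.6, 13.1, 13.0, 25.2 and 13.5 CPM in CO. All FO mice were above the CO median, and 4 of the 5 CO mice were below every FO mouse, but CO mouse 4 lay among the FO values. As CPM of the counts outside Rn45s, FO mouse 2 (52.8) fell below CO mice 1, 2 and 4 (66.4, 53.9 and 85.5), FO mouse 1 (55.9) fell below CO mice 1 and 4, and the two-sided exact permutation test gave p = 0.135. With TMM the log2 fold change was 0.60 ± 0.42 (SE, 95% interval -0.22 to 1.43, unadjusted p = 0.152), and the two-sided exact permutation test gave p = 0.0556. With library size alone the log2 fold change was -0.04, but that scale moved all genes down and Isg15 lay 0.39 above their median. Under the other 15 alternatives it was between 0.43 and 0.93, and the unadjusted p of each was above the threshold.

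The Ifit proteins bind foreign RNA and hold back its translation. Ifit1 measured 13.7, 14.8, 30.2, 23.6 and 33.4 CPM in FO mice 1 to 5 and 36.3, 13.1, 15.1, 25.2 and 2.69 CPM in CO mice 1 to 5. The FO values all lay inside the wider range of the CO group, which held the highest value in CO mouse 1 (7 counts) and the lowest in CO mouse 5 (2 counts). Ifit3, the partner that stabilizes Ifit1, had 15, 13, 0, 16 and 9 counts in FO and 3, 2, 7, 33 and 12 counts in CO. FO mouse 3 had no count and CO mouse 4 alone held 33 of the 57 counts of its group, at 34.7 CPM. The log2 fold changes were 0.31 ± 0.44 for Ifit1 and -0.35 ± 0.44 for Ifit3 (SE, unadjusted p of 0.474 and 0.424). Ifit3 shares 51.2% of its 50-base stretches with Ifit3b in the GENCODE transcripts. Ifit3b, listed as I830012O16Rik, had 22 counts in each group, and how reads matching both genes were counted is not known.

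Bst2, or tetherin, holds budding viruses at the cell surface. It had 8, 18, 1, 8 and 4 counts in FO and 2, 2, 1, 17 and 4 in CO, or 10.1 ± 3.39 and 8.91 ± 5.93 CPM. Its values were at or under the floor of 3 counts in 4 mice, FO mouse 3 and CO mice 1, 2 and 3, and no difference between the diets was detected (log2 fold change 0.19, 95% interval -0.88 to 1.25, unadjusted p = 0.734). A rise beyond 2.38-fold in FO lies outside that interval.

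The Ifitm proteins stiffen membranes against viral fusion, and the genes of Ifitm2 and Ifitm3 both lie on chromosome 7. Ifitm3 was the best measured of all members, with 554 counts and at least 15 in every mouse. It stood at 77.9, 60.7, 106, 92.1 and 109 CPM in FO mice 1 to 5 and at 77.8, 113, 82.2, 131 and 98.3 CPM in CO mice 1 to 5. The ranges overlapped broadly, with the lowest value in FO mouse 2 and the highest in CO mouse 4. The log2 fold change was -0.24 ± 0.26 (SE, 95% interval -0.79 to 0.31, adjusted p = 0.998), so a rise beyond 1.24-fold in FO lies outside the interval. The value was negative under all 18 alternatives, from -0.92 with library size alone, where the median of the genes tested was -0.55, to -0.1 without FO mouse 2, and its p was never under the threshold.

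Ifitm2 had 13.5 ± 5.95 CPM in FO and 15.2 ± 7.02 in CO, with counts between 2 and 25. Its highest values were in CO mouse 4 and FO mouse 4 and its log2 fold change was -0.23 (95% interval -1.14 to 0.69). Of its 50-base stretches 48.5% also occur in other GENCODE genes, pseudogenes among them, against 10.02% for Ifitm3. Of the 5 other Ifitm genes, Ifitm1 had 14 counts in FO and 12 in CO, Ifitm6 had 0 and 2, and Ifitm7 was listed at 0. None of the 4 with any count passed the threshold.

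Gbp2 is a guanylate-binding GTPase that gamma interferon induces and that attacks the vacuoles of intracellular microbes. It measured 13.7, 41.2, 45.3, 23.6 and 6.07 CPM in FO mice 1 to 5 and 5.19, 26.2, 26.0, 9.47 and 45.8 CPM in CO mice 1 to 5. Gbp2 varied widely among mice of the same diet, with FO mice 2 and 3 and CO mouse 5 high and FO mouse 5 and CO mouse 1 low, so that each group spanned nearly the whole range of the other. The means were 26.0 ± 17.0 CPM in FO and 22.5 ± 16.1 in CO, with a log2 fold change of 0.09 ± 0.49 (SE, 95% interval -0.94 to 1.11, adjusted p = 0.998). CO mouse 4, which was the highest of its group for 6 of the members, was low for Gbp2.

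**Figure D2:**
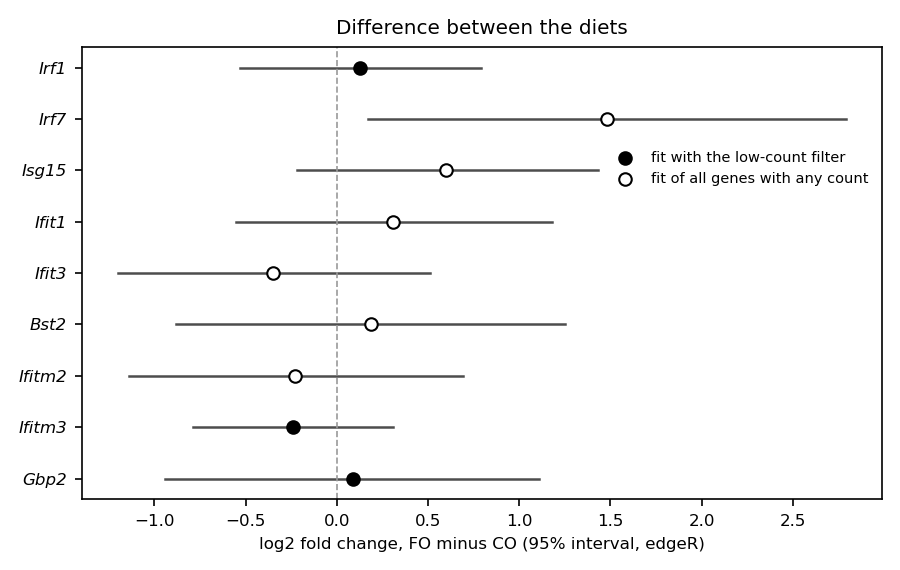
Log2 fold change (FO minus CO) of the 9 members from edgeR with its 95% interval. Filled points passed the default filter and open points come from the fit of all genes with any count. The interval of Irf7, 0.17 to 2.79, is the one that does not reach 0.

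How the members varied together across mice was poorly resolved. Among the 3 that passed the filter, Pearson's r of log2 CPM over the 10 mice was -0.06 for Irf1 and Ifitm3 (permutation p = 0.87, Spearman's rho -0.13 with p = 0.734), 0.23 for Irf1 and Gbp2 (p = 0.51, rho 0.16 with p = 0.656) and -0.13 for Ifitm3 and Gbp2 (p = 0.726, rho -0.01 with p = 1.0). The p adjusted over these 3 pairs was 0.87 for each r and 1.0 for each rho. Without the 2 mice farthest from the median of the first gene, r was -0.36, 0.29 and -0.01. These r use the normalization of the filtered genes. Over all 36 pairs of members, with the normalization of genes with any count, which turned Irf1 and Ifitm3 to r = 0.05 and rho = 0.13, r had a median of 0.11 and ran from -0.62 to 0.66, 28 were positive, and 3 had an unadjusted permutation p under 0.05. These were Irf7 and Isg15 (r = 0.66, permutation p = 0.0368, rho 0.78 with p = 0.00986), Ifitm2 and Ifitm3 (r = 0.66, permutation p = 0.0395, rho 0.6 with p = 0.0723) and Ifit3 and Gbp2 (r = -0.62, permutation p = 0.0401, rho -0.61 with p = 0.0671), and the smallest p adjusted over the 36 was 0.481 for r and 0.355 for rho. Without the 2 mice farthest from the median of the first gene their r was 0.62, 0.6 and -0.55, and after the diet means were subtracted it was 0.36, 0.65 and -0.61. By rho, Ifit1 and Gbp2 also had an unadjusted permutation p under 0.05 (rho -0.65 with p = 0.0495, r = -0.6 with permutation p = 0.0552). The genes whose pattern over the 10 mice was most like that of Ifitm3 were Hlf (r = 0.93), Arrb1 (0.92) and Sri (0.91), out of 2437 genes compared. With counts this low, a weak r between members is no finding.

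Interferon targets often share DNA sites near their start, so a shared site follows in part from how the members were chosen. The interferon-stimulated response element, the DNA site of STAT and IRF complexes, has the core GAAANNGAAA. Both strands of RefSeq promoters (GRCm38.p6, 250 bases before to 50 after each start site) were searched for it, and promoters were found for 9 of 9 members. The core was in 7 of 9 members (all but Irf1 and Irf7) and in 3.44% of 32851 promoters, or 3.85% of the 16780 gene symbols of the table with a promoter. The gamma-activated site TTCNNNGAA was in 3 of 9 (Irf1, Bst2 and Ifitm3) and in 8.3% of the promoters, or 9.21% of the symbols. The stretches below are shown because they carry that shared core, and capitals mark its matches. They run 5′ to 3′ on the plus strand of the genome for Ifit1 and Gbp2 and on the minus strand, that of the gene, for Isg15 and Ifitm3. A match is not evidence of binding.
Isg15, chr4:156200869-156200902, minus strand: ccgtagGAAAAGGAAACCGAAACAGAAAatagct
Ifitm3, chr7:141010716-141010742, minus strand: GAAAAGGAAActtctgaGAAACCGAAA
Ifit1, chr19:34640779-34640819, plus strand: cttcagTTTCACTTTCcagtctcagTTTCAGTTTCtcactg
Gbp2, chr3:142620598-142620619, plus strand: ttttagTTTCACTTTCactgtc

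Isg15 holds 3 overlapping matches in the stretch shown, which runs from -84 to -51 relative to its start site, while the 2 of Ifitm3 lie just after its start. Ifit1 carries 2 and Gbp2 1, in the reverse orientation. Whether the core marks genes that differed between the diets could not be decided, since few genes with it were called. Of the 65 tested genes with it, 2 (3.08%) had an unadjusted p under 0.05, beside 2.85% of the 1825 without it, and their median log2 fold changes were 0.03 and 0.

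The rest of the pathway gave little more. Of the 21 interferon genes, 20 were listed at 0 in every mouse, Ifnb1 and Ifng among them, and Ifnk had 1 count in 1 FO mouse, so the ligands could not be compared. All 13 receptor, kinase and STAT genes were counted and 0 of the 6 tested passed the threshold in edgeR, or 1 without CO mouse 5. Ifnar1, a chain of the type I receptor, had 96.6 ± 34.9 CPM in FO and 93.7 ± 30.4 in CO, and the kinase Jak1 had 80.7 ± 20.3 and 80.2 ± 28.2. RNA for receiving an interferon signal was thus present in the lungs of both groups.

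Upstream of the ligands, 1 of the 21 nucleic acid sensors and adaptors passed the filter, and it was not called. Ifih1, which detects viral double-stranded RNA, had 25.8 ± 6.02 CPM in FO and 21.8 ± 14.9 in CO, and its relative Ddx58 had 16.0 ± 4.85 and 16.7 ± 10.7. Tlr9 was listed at 0. Of the 7 other interferon regulatory factors 2 were tested and neither was called. These were Irf2, an antagonist of Irf1, with 64.4 ± 35.5 CPM in FO and 69.0 ± 24.7 in CO, and Irf8, a factor of myeloid cells, with 52.4 ± 12 and 50.9 ± 7.69.

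Among inhibitors of the pathway, 1 of 3 tested genes was called. Ptpn11 encodes the phosphatase SHP2, which can dampen STAT signals but serves growth factor receptors as well. Its level was 69.9, 94.1, 35.2, 69.7 and 78.9 CPM in FO mice 1 to 5 and 62.2, 65.4, 95.2, 135 and 155 CPM in CO mice 1 to 5. CO mice 4 and 5 were the highest and FO mouse 3 the lowest, and the groups overlapped. The log2 fold change was -0.59 ± 0.26 (SE, unadjusted p = 0.0328, adjusted p = 0.998), and the two-sided exact permutation test gave p = 0.19. The call was lost when FO mouse 1, 3 or 4 or CO mouse 4 or 5 was left out, with log2 fold changes of -0.59 to -0.44 and an unadjusted p of 0.0545 to 0.115. The log2 fold change was -0.57 among genes with any count (unadjusted p = 0.0585) and -1.24 with library size alone (unadjusted p = 0.0591), where the median of the genes tested was -0.55. With the default filter it was the only call in the 8 pathway lists, with edgeR as with DESeq2, or 1 of their 38 distinct tested genes (2.63%), near the 2.91% of all genes tested.

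Of 68 other type I targets, 64 had a count and 11 were tested, with 0 called, a median log2 fold change of 0.08, and 6 positive and 5 negative values. The most abundant were Slfn5, a restriction factor of the Schlafen family, with 75.9 ± 23.0 CPM in FO and 85.2 ± 35.5 in CO, and Samhd1, which depletes nucleotides that viruses need, with 63.6 ± 21 and 60.4 ± 21.4. In the fit of all 64, 2 were higher in FO at an unadjusted p under 0.05 and 0 lower, with a median of 0.17, while 2.58% of all genes in that fit were higher in FO at that threshold. The share of the list was near that of all genes, and DESeq2 called 0 of the 64. Without CO mouse 4, 0 were higher and 1 lower. Library size alone also gave 0 higher and 1 lower, on a scale that turned the calls over all genes from 365 higher and 222 lower to 85 higher and 495 lower.

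Those 2 were Rsad2 and Pnpt1, which are named here after their values were seen. Rsad2, or viperin, makes a chain-terminating nucleotide. It measured 27.5, 21.8, 50.3, 46 and 24.3 CPM in FO mice 1 to 5 and 15.6, 21.8, 43.3, 0 and 4.04 CPM in CO mice 1 to 5. CO mice 4 and 5 were low, and CO mouse 3 was above 3 of the FO mice, so the groups overlapped. Its log2 fold change was 1.15 (unadjusted p = 0.00666) among genes with any count, and 1.17 ± 0.66 (unadjusted p = 0.0897) with the default filter. Single CO mice moved it widely, to 0.68 without CO mouse 4 (unadjusted p = 0.111), 0.81 without CO mouse 5 (unadjusted p = 0.0633) and 2.35 without CO mouse 3 (unadjusted p = 1.44e-05). The red cell marker Alas2 was likewise lowest in CO mice 4 and 5 and highest in CO mouse 3 within its group. It measured 41.2, 59.1, 35.2, 65.9 and 54.7 CPM in FO mice 1 to 5 and 41.5, 21.8, 75.7, 2.1 and 5.39 in CO mice 1 to 5. Its part in the Rsad2 values was not tested. Pnpt1, a mitochondrial RNA exonuclease, had 15 counts in FO and 2 in CO, both of the latter in CO mouse 5, for a ratio of pooled CPM of 5.54 (exact 95% counting interval 1.29 to 49.9). Its unadjusted p of 0.0305 became 0.061 without CO mouse 3 and 0.106 without CO mouse 4, with log2 fold changes of 2.04 and 1.76 against 2.25. Without CO mouse 5 the CO group has no count of Pnpt1.

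CO mouse 4 thus gave opposite readings within the type I targets, as the highest CO mouse for Isg15, Ifit3 and Bst2 and the one with no count of Rsad2.

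Of 50 other gamma-induced genes, 47 had a count and 16 were tested, with 0 called, a median log2 fold change of 0.03, and 10 positive and 6 negative values. Over all 47 the balance was the reverse, with 20 positive and 27 negative values, a median of -0.06 and 0 called by edgeR or DESeq2, or 0 to 2 by edgeR with 1 mouse left out. With the default filter, leaving out FO mouse 1, FO mouse 2 or CO mouse 4 gave 1 call each. B2m, the light chain of class I antigen presentation, had 193 ± 25.3 CPM in FO and 187 ± 59.6 in CO, and the heavy chain H2-K1 had 134 ± 94.5 and 126 ± 53.8. The 95% interval of B2m reached no further than 1.4-fold higher in FO. Gbp2b, the closest relative of Gbp2, was listed at 0 in every mouse, as were Tgtp1 and Cxcl11.

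**Figure D3:**
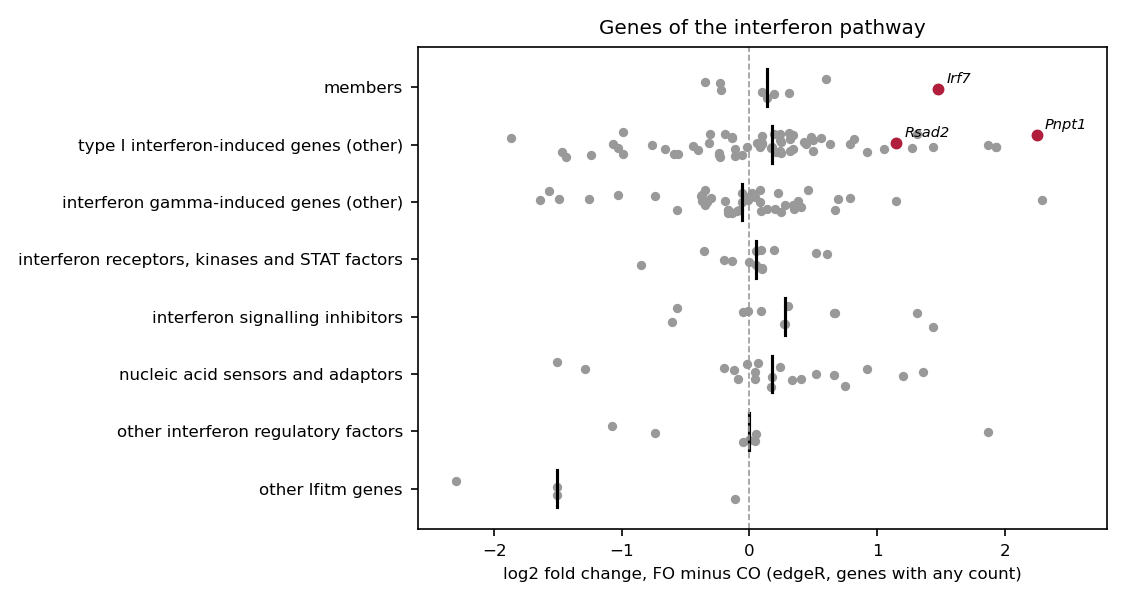
Log2 fold change (FO minus CO) of each gene with any count, by list, from edgeR. Red points have an unadjusted p under 0.05 and are named, and black bars are list medians, 0.14 for the members, 0.17 for the other type I targets and -0.06 for the gamma-induced genes.

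Other cell types that carry interferon targets were checked by summed markers. Macrophage genes (17 counted, led by Lyz2) came to 411 ± 103 CPM in FO and 302 ± 142 in CO, with overlapping groups (two-sided exact permutation test, p = 0.135). Lymphocyte genes (14, led by Ms4a1) summed to 26.3 ± 12.3 and 33.9 ± 25.6 CPM (p = 0.929 by the same exact test). Endothelial genes had 1460 ± 398 and 1540 ± 352 CPM, alveolar type 2 genes 2240 ± 819 and 1710 ± 801, alveolar type 1 genes 570 ± 120 and 588 ± 293, and club cell genes 1400 ± 314 and 1710 ± 669. For these 4 lists the exact permutation p lay between 0.23 and 0.873. Of the 7 red blood cell genes, Alas2 was counted (51.2 ± 12.7 CPM in FO and 29.3 ± 30.3 in CO) and the 6 globin genes were listed at 0. In the fit of genes with any count, 3 of the 70 counted markers outside the neutrophil list (4.29%) had an unadjusted p under 0.05, near the 4.15% of all genes. These were Alas2, an enzyme of heme synthesis in red cell precursors (log2 fold change 0.99, unadjusted p = 0.00623, against 0.97 and an unadjusted p = 0.122 with the default filter), the macrophage gene Cd68 (2.0 with 18 counts in FO and 3 in CO, unadjusted p = 0.0347) and the club cell gene Scgb3a1 (-0.6, unadjusted p = 0.0455, against -0.66 and an unadjusted p = 0.0868 with the default filter). They are named after their values were seen, and their part in the values of the members was not tested.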

How the data were processed

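The authors aligned single-end reads with STAR (2.4.0f1) to mm10 and deposited raw counts per gene symbol from HTSeq, without normalization. Libraries were made with TruSeq v2 or riboZero, and which mouse had which is not named. Genes were tested with edgeR 4.0.16 (R 4.3.3, TMM, default filter at 10 counts and a total of 15, quasi-likelihood F test), with an unadjusted p under 0.05 as the threshold and Benjamini-Hochberg adjusted p beside it. Members that the filter removed were read from a fit to every gene with any count. CPM are TMM-normalized, and log2 CPM used a prior count of 2. Single values were tested by exact permutation over all 252 assignments, and correlations with 100000 permutations (scipy 1.17.1). Transcript lengths are of APPRIS principal transcripts in GENCODE M21. The members, the 8 pathway lists and the 9 marker lists were chosen with earlier results of these data known. Named genes were all members, list genes under the threshold with the default filter (otherwise the most abundant 2), and the most abundant marker of each cell type with those at 0. Alternatives were DESeq2 1.42.0, its size factors in edgeR, library size alone, other filters, Rn45s left out, a replicate block, leaving out single mice and, added after seeing the data, FO mouse 2 and CO mouse 5 left out together.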

Additional observations from a re-analysis of the deposited data

Results flagged for a closer look

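In 2 of the 18 combinations of a member and a diet, 1 mouse stood far from the other 4. CO mouse 4 had 25.2 CPM of Isg15 with the nearest CO mouse at 15.6, a gap of 0.79 of the whole range of the group. The same mouse had 34.7 CPM of Ifit3 with the nearest at 16.2, a gap of 0.714 of the range. Chance sets apart about 1 in 20 such groups, or 0.9 of 18. CO mouse 4 also had the lowest share of Rn45s.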

How the results depend on the processing

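Of the 9 members, Irf7 and Ifitm3 kept their sign under every alternative that gave a value, and Isg15 under all but library size alone, which lowered all genes. Irf7 kept an unadjusted p under 0.05 under 14 of 16, including the replicate block (1.85, unadjusted p = 0.0143), in which numbers alone pair different mice. In that block, with the default filter, Ptpn11 lost its call (-0.57, unadjusted p = 0.0675) and 1 type I target was called. With library size alone, the members' median log2 fold change was -0.68 with the default filter and -0.48 with any count, 0 of 9 members and 580 genes in all passed the threshold with any count, 36 genes and 0 pathway genes did with the default filter, and the values were -0.68 for Irf1, -0.04 for Isg15, -0.48 for Bst2, -0.28 for Ifit1 and -0.33 for Gbp2, on a scale where the median of all genes was -0.55 (default filter) or -0.43 (any count). Without FO mouse 2 and CO mouse 5 together, Irf1 was at -0.15, Bst2 at -0.18 and 2 pathway genes were called. With genes with any count, 1 member, 587 genes in all and 2 pathway genes were called, and with at least 10 counts in every mouse 15 and 0. Leaving out 1 mouse at a time gave, among genes with any count, 0 to 1 members called, 535 to 782 genes in all and a members' median of -0.01 to 0.56, and with the default filter 0 members, 54 to 154 genes and 0 to 2 pathway genes. The log2 fold changes then ran from -0.08 to 0.51 for Irf1, 0.43 to 0.93 for Isg15, -0.04 to 0.9 for Bst2, -0.48 to 0.2 for Ifitm2, -0.06 to 0.65 for Ifit1, -0.51 to 0.14 for Ifit3 and -0.22 to 0.27 for Gbp2. Gbp2 passed the filter under 11 of 18 alternatives and Irf1 under 17, and the others gave them no value. The cause of these shifts was not tested. Depth limits the list, since 6 of the 9 members had too few counts for the default filter.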
